A study of Mus musculus with 15 samples.

Results

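MicroRNAs (miRNAs) of the kidney were compared between old and young mice. The 10 libraries compared, of 15 in the series, came from 5 old (24 months) and 5 young (3 months) mice, chosen by the age in the labels. All were small RNA libraries of whole kidney from male C57BL/6 mice, an inbred laboratory strain, kept on standard chow and tap water, and no treatment or engineered allele was named for either age. Each library carries its own mouse number (5 to 9 at 3 months, 31 to 35 at 24 months), so no mouse was paired across ages. The 5 libraries of mice aged 12 months entered the fit to estimate the spread between mice, and they are otherwise given for orientation. In whole kidney, fewer cells of a type and less RNA per cell cannot be told apart.

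A miRNA is a short RNA that is cut from a hairpin precursor. Either arm of the hairpin, 5p or 3p, can be loaded into an Argonaute protein, where it guides the repression of messenger RNAs that pair with its seed, bases 2 to 8 of the mature miRNA. miRNAs with the same seed share many predicted targets, and hairpins that lie close together are often cut from 1 transcript. In the kidney, the miR-30, miR-10, miR-192, miR-194, miR-200 and miR-204 groups are known from tubular epithelium, miR-29 represses collagen genes, the miR-34 group is induced by p53, and miR-155 and miR-142a are known from leukocytes.

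Mature sequences are shown first for 7 of the 12 changed miRNAs, for relatives of miR-26a-5p and miR-200b-3p and for the tubular miR-204-5p, because their seeds define groups described here. They were taken from RefSeq (GRCm38.p6), which held the sequences of 62 of the 83 named miRNAs used here, and the capitals mark the seed.
miR-335-5p: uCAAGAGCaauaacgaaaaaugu
miR-335-3p: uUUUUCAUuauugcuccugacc
miR-34a-5p: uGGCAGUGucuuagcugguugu
miR-155-5p: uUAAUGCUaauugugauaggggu
miR-26a-5p: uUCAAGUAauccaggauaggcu
miR-26b-5p: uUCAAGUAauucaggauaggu
miR-615-3p: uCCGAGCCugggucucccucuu
miR-200b-3p: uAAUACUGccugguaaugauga
miR-200c-3p: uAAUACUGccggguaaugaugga
miR-429-3p: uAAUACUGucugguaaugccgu
miR-200a-3p: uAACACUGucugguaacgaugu
miR-141-3p: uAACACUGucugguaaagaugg
miR-204-5p: uUCCCUUUgucauccuaugccu
miR-26a-5p and miR-26b-5p share a seed. So do miR-200b-3p, miR-200c-3p and miR-429-3p, while miR-200a-3p and miR-141-3p share another.

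The libraries held 12.2 to 17.6 M (mega) counts at 3 months and 12.2 to 20.7 M at 24 months. Sequences named after mouse miRNAs took 99.4% of the counts of each of these libraries, and the 10 most abundant sequences held 48.1% to 51.0%. The markers chosen for kidney tubule were present at both ages, with 21491 to 25701 CPM (counts scaled to a library total of 1 M) of miR-192-5p and 57673 to 65826 CPM of miR-30a-5p. The lowest of them was miR-204-5p, with 95.8 to 146 CPM at 3 months and 142 to 177 CPM at 24 months. The libraries differed in reads from ribosomal RNA (rRNA) genes. These made up 13.3 to 75.3 CPM in 4 of the 5 libraries at 3 months and 13.0 CPM in 1 of the 5 at 24 months (mouse 32), called the higher level here, and 1.5 to 3.29 CPM in the others. The labels name no batch. Because the level moved with age, it was entered as a term in an alternative fit, whose values are given beside the calls it changes.

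Between 24 and 3 months, 12 of the 666 sequences tested (1.8%) passed an adjusted p of 0.05 in edgeR's quasi-likelihood test (Benjamini-Hochberg) and are named called here. At 24 months 5 were higher (0.751% of those tested) and 7 lower (1.05%). Besides both arms of miR-124, the higher ones were miR-26a-5p, miR-34a-5p and miR-155-5p. The lower ones were both arms of miR-335, miR-378a-3p, miR-151-3p, miR-615-3p, miR-200b-3p and miR-2137. All 12 are mouse miRNAs, although 160 of the tested sequences bear names of other species and 18 are predicted. More than 2-fold changes were found in 3, the arms of miR-124 and miR-2137. In 11 of the 12, each mouse of one age lay above each mouse of the other, which held for 29 of the 666 sequences (4.35%). For miR-124-5p this holds only as listed, since its 0 values in young mice can stand for up to 0.411 CPM. At an unadjusted p under 0.05, 64 sequences were higher (9.61%) and 74 lower (11.1%), and the median log2 change of all 666 was -0.01.

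The changes of abundant miRNAs were small. Over the 67 mouse miRNAs that averaged 1000 CPM or more the median absolute log2 change was 0.07. The largest, 0.69, was that of miR-451a, which was lower. Among the 10 most abundant miRNAs, miR-26a-5p passed the test, and the other 9 (miR-30c-5p, miR-10a-5p, miR-30a-5p, miR-30e-5p, miR-10b-5p, let-7c-5p, miR-143-3p, miR-21a-5p and let-7f-5p) had log2 changes of -0.11 (miR-10b-5p) to 0.10 (miR-30a-5p), none past the threshold.

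**Figure D1:**
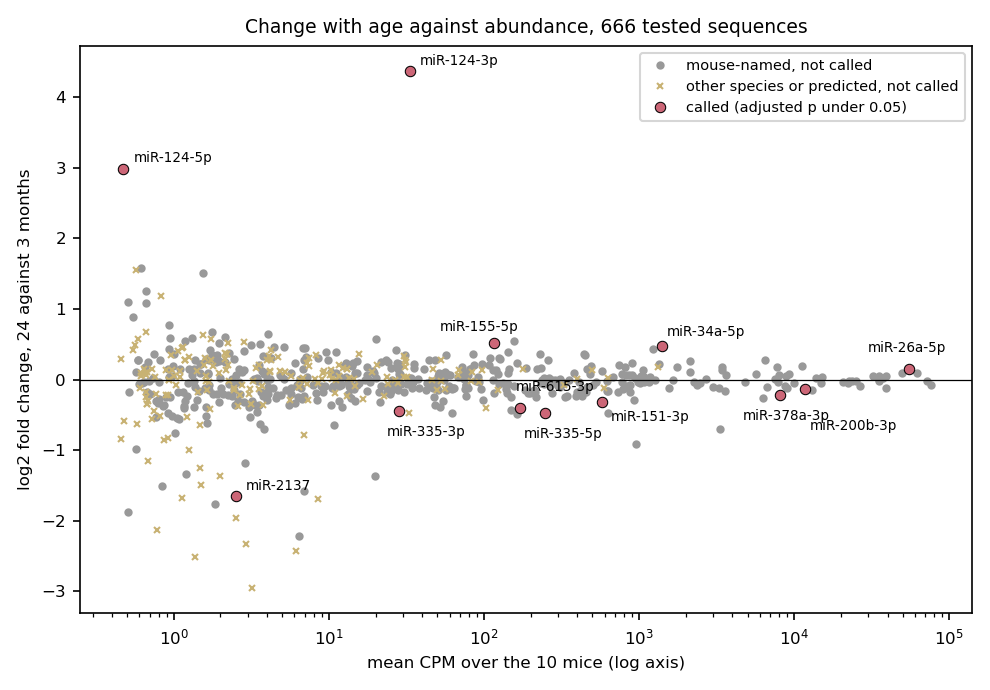
The log2 fold change at 24 against 3 months is plotted against the mean CPM of the 10 mice (log axis), 1 point per tested sequence, with the 12 called sequences in red and named. The called miRNAs lie at all abundances, from miR-124-5p and miR-2137 under 10 CPM to miR-26a-5p, the highest, and apart from miR-124 and miR-2137 their log2 changes stay between -0.48 and 0.51. Several sequences under 10 CPM had larger log2 changes without passing the test.

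The number of calls depended on single mice. Leaving out mouse 32 (24 months) gave 34 calls and mouse 9 (3 months) 27, whereas leaving out mouse 34, 33 or 35 (24 months) gave 8, 6 and 4. Mouse 32 was the 24-month library of the higher rRNA level, and mouse 9 the 3-month library of the lower level. A term for the level left 8 calls, of which 7 were among the 12. With the summed level of erythroid miRNAs as a covariate, miR-124-3p alone passed, and the other 11 kept their direction with adjusted p (edgeR) of 0.0524 to 0.239. Their log2 changes stayed near those without it for miR-155-5p (0.51), miR-34a-5p (0.50), miR-26a-5p (0.17), miR-335-3p (-0.42), miR-151-3p (-0.29) and miR-2137 (-1.62). That of miR-615-3p was larger (-0.49), and those of miR-335-5p (-0.36), miR-378a-3p (-0.17) and miR-200b-3p (-0.11) were smaller. Of the calls 41.7% were higher, and this share was 36.4% to 57.1% when each library in turn served as the reference of the scaling. Under all 18 scalings run 7 of the 12 were called, while miR-26a-5p and miR-615-3p were called under 17, miR-2137 under 16, miR-200b-3p under 9 and miR-34a-5p under 7.

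The largest change was that of miR-124-3p, the main miRNA of neurons. Its level was 3.53, 2.89, 2.14, 6.32 and 0.394 CPM (TMM-scaled, as are all CPM values of mice given here unless stated) in 3-month mice 5 to 9. In 24-month mice 31 to 35 it was 40.0, 112, 57.7, 36 and 71.3 CPM. The lowest old mouse was thus far above the highest young mouse, and the levels varied widely within both ages. On the log2 scale the change was 4.37 ± 0.47 (SE), or 20.7-fold (edgeR, adjusted p = 5.07e-05), and it was called in each of the 40 alternatives that tested it. In the mouse with the fewest reads, 3-month mouse 9, 6 reads gave a share of 0.396 CPM of the total (95% Wilson interval 0.182 to 0.864). It came to 4.79 ± 0.45 once the rRNA level was included. The 12-month mice had 52.9 to 123 CPM.

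No young mouse had reads listed for the other arm, miR-124-5p (0 in all 5). In 24-month mice 31 to 35 it had 1.53, 1.14, 1.42, 0.250 and 0.391 CPM, or 5 to 25 reads. Because most values under 5 reads are listed as 0, the 3-month mice could hold up to 0.284 to 0.411 CPM. The mean of the old mice was 2.6-fold the mean of these limits, without counting error. Mouse 34 lay below these limits and mouse 35 among them, so the ages may overlap. miR-124-5p could pass the filter on low counts only through the older mice, so its call is no support beside that of miR-124-3p. Both arms come from hairpins on chromosome 14 (chr14:64590657-64590741, exon of Mir124a-1hg), chromosome 3 (chr3:17795661-17795775, exon of Mir124-2hg) and chromosome 2 (chr2:180894014-180894135, exon of Gm27032), 3 long noncoding genes. The hairpins share the mature miRNA, so the locus of origin is unknown.

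No other tested miRNA of the neuron list was called beside miR-124. The neuron list had 14 tested members, 5 higher and 9 lower, with a median log2 change of -0.08, and the 2 arms of miR-124 were the 2 called. Its summed level, miR-124 included, was 815 to 884 CPM at 3 months and 783 to 863 CPM at 24 months. In this sum miR-124-3p averaged 3.05 CPM in young and 63.4 CPM in old mice, so the sum does not give the level of the other members. Among its defining members none was at 0 throughout. On the scale of library totals, miR-9-5p had 408 to 502 CPM at 3 months and 369 to 435 CPM at 24 months, and miR-128-3p had 125 to 162 and 129 to 153 CPM. The rare miR-137-3p had 0 to 1.78 CPM at 3 months (median 0.454) and 0.575 to 1.68 CPM at 24 months (median 1.17). The 2 members with the smallest p in the lower direction, neither called, were miR-9-3p (log2 change -0.30 ± 0.09 SE) and miR-129-5p (-0.65 ± 0.26). The part of nerve tissue in the miR-124 reads was not tested.

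**Figure D2:**
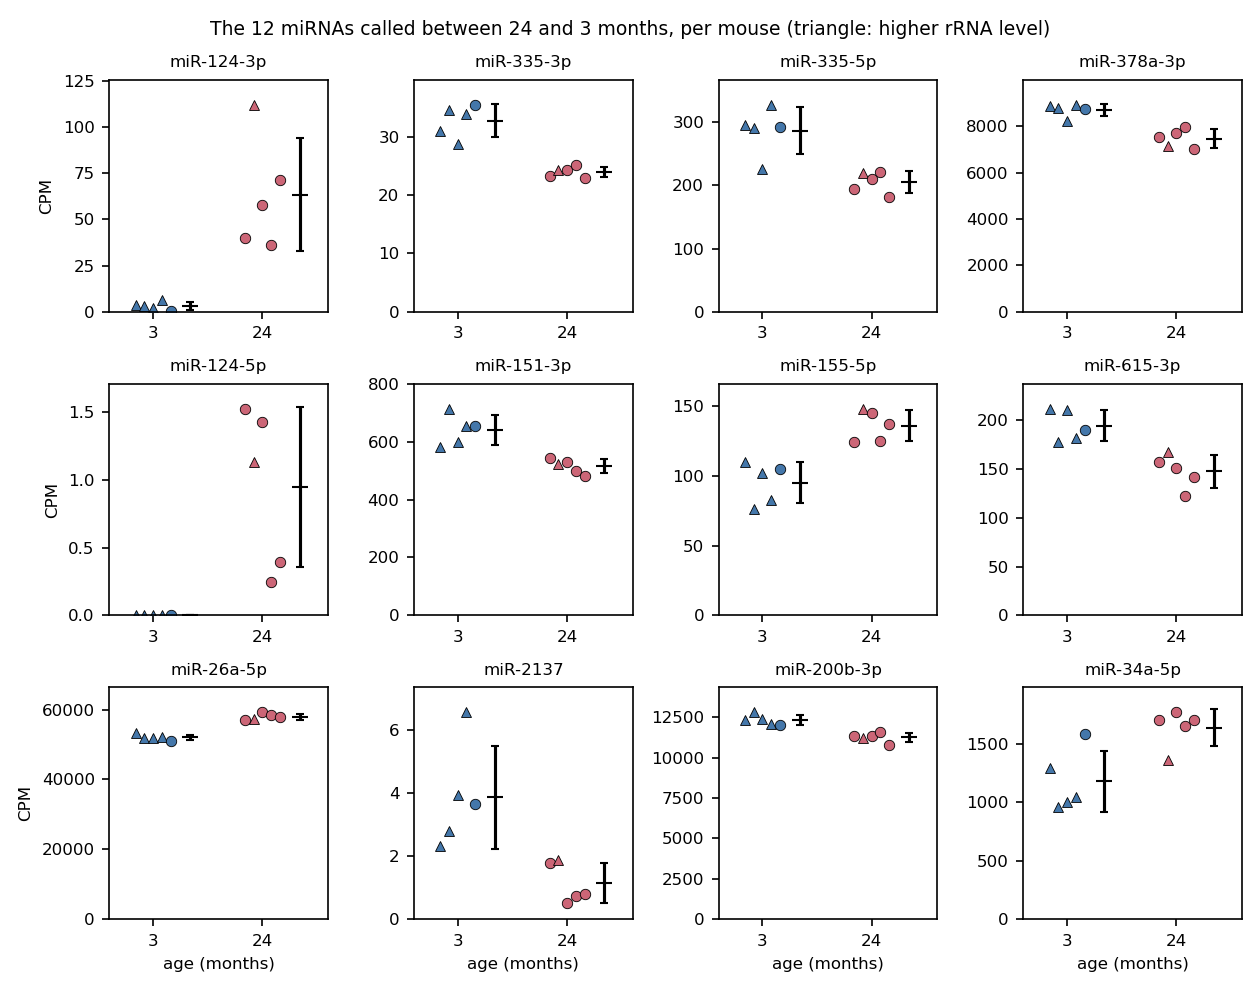
CPM of the 12 called miRNAs in each mouse, with 3-month mice in blue and 24-month mice in red, triangles for libraries of the higher rRNA level, and black bars for the mean ± SD of 5 mice. The ages do not overlap in 11 panels, in that of miR-124-5p only as listed, since 0 can stand for up to 0.411 CPM. In the panel of miR-34a-5p, the 24-month mouse of the higher level (1364 CPM) lies below the 3-month mouse of the lower level (1585 CPM).

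The miR-34 group is induced by p53 and is known to restrain the cell cycle and to increase in senescent cells. miR-34a-5p (chr4:150068473-150068494, between genes) had 1294, 962, 1005, 1042 and 1585 CPM in 3-month mice 5 to 9. It had 1703, 1364, 1770, 1655 and 1701 CPM in 24-month mice 31 to 35. The ages overlapped at 3-month mouse 9 and 24-month mouse 32, the libraries whose rRNA level differed from the others of their age. The log2 change was 0.48 ± 0.12 (SE, adjusted p = 0.0477, edgeR), and 0.32 ± 0.11 with the level as a term (adjusted p = 0.207). Of the 15 fits with 1 library left out 13 lost it (adjusted p up to 0.134), and it stayed when mouse 9 or mouse 32 was dropped. It was called under 7 of 18 scalings.

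The related hairpins mir-34c and mir-34b lie together (chr9:51103034-51103650, minus strand) and pointed the same way. Their 4 mature miRNAs were all tested and all higher, with log2 changes of 0.24 to 0.46, 3 of them at an unadjusted p under 0.05 and 0 called. The most abundant, miR-34c-5p, had 195, 179, 170, 230 and 224 CPM at 3 months and 269, 218, 263, 287 and 244 CPM at 24 months, which is a log2 change of 0.36 ± 0.09 (SE, adjusted p = 0.0583, edgeR). Only 24-month mouse 32 lay within the range of the young mice. Summed over the pair of hairpins, the log2 change was 0.35 ± 0.09 with an adjusted p of 0.0334 (edgeR), a pair named after its values were seen. That call was lost with the rRNA level as a term (adjusted p = 0.190) and with the erythroid covariate (0.39 ± 0.13, adjusted p = 0.143). It was also lost in 8 of the 15 fits with 1 library left out, those without 3-month mice 5, 6 or 7, 12-month mouse 18 or 24-month mice 31, 33, 34 or 35 (adjusted p up to 0.0921). The list of p53 targets had 11 tested members. Of these, 9 had a log2 change above 0 (8 to 10 under the scalings tried), and its median was 0.24, against -0.01 for all tested sequences. Of the 11, 6 were arms of the miR-34 hairpins, which held all 4 with an unadjusted p under 0.05, and the other 5 (miR-145a-5p, miR-143-3p, miR-215-5p, miR-192-5p and miR-194-5p) had log2 changes of -0.03 to 0.18.

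miR-155-5p (chr16:84714143-84714165, exon of Mir155hg), which acts in activated lymphocytes and macrophages, had 110, 76.5, 102, 82.5 and 105 CPM in the 3-month mice. The 24-month mice had 124, 148, 145, 125 and 137 CPM, so the ages did not overlap. This is a log2 change of 0.51 ± 0.11 (SE, adjusted p = 0.0268, edgeR). Without 3-month mouse 8 or 24-month mice 33 or 35, 1 at a time, the adjusted p was 0.0607, 0.0920 and 0.0687. Of the 10 tested members of the leukocyte list 9 had a log2 change above 0, and 3 had an unadjusted p under 0.05 (both arms of miR-142a besides miR-155-5p). The median log2 change was 0.26. miR-142a-5p, specific to blood cells, had 995, 741, 1338, 851 and 1313 CPM at 3 months and 1502, 1421, 1518, 1150 and 1475 CPM at 24 months (log2 change 0.43 ± 0.14, adjusted p = 0.112), and 24-month mouse 34 lay among the young mice. The changes of miR-342-5p (0.16 ± 0.49), miR-146a-5p (0.07 ± 0.14) and, at under 4 CPM, miR-223-5p (-0.11 ± 0.66) were smaller than their SE. The summed level of the list overlapped between ages, with 4296 to 7154 CPM at 3 months and 5660 to 6926 CPM at 24 months.

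Erythroid miRNAs pointed the other way. All 4 tested members of the list (miR-486a-5p, miR-451a and both arms of miR-144) were lower, each at an unadjusted p under 0.05 and 0 called, with a median log2 change of -0.59. miR-486a-5p, from an intron of Ank1 (chr8:23142555-23142682), had 1255, 1741, 912, 1115 and 1240 CPM at 3 months and 977, 422, 861, 668 and 382 CPM at 24 months. The difference was -0.92 ± 0.25 on the log2 scale (SE, adjusted p = 0.0687, edgeR), and 24-month mouse 31 lay above 3-month mouse 7. Its hairpin and that of mir-486b, on the opposite strand, give the same mature miRNA, and summed per hairpin each was called (adjusted p = 0.0334). These calls were lost with the rRNA level as a term (-0.99 ± 0.30, adjusted p = 0.0814), with the summed erythroid list, of which the miRNA is a member, as a covariate (adjusted p = 0.340), and without 3-month mice 5, 6 or 8, 12-month mouse 18 or 24-month mice 32, 34 or 35 (adjusted p up to 0.0889). miR-451a, which matures in red cell precursors, had 5123, 5349, 2722, 3838 and 3394 CPM at 3 months and 3046, 2162, 3135, 2696 and 1585 CPM at 24 months, a log2 change of -0.69 ± 0.23 (adjusted p = 0.112). The summed list ranged from 4347 to 8138 CPM in the young and from 2449 to 4921 CPM in the old mice. How much blood remained in the kidneys is not given, and its part in these values was not tested.

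**Figure D3:**
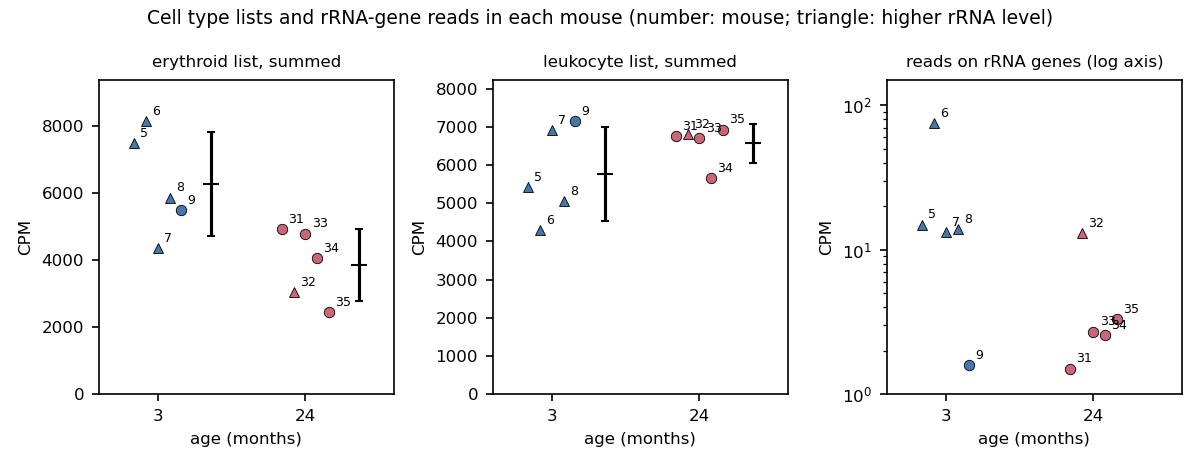
Summed CPM of the erythroid and of the leukocyte list and CPM of reads on rRNA genes (log axis) in each numbered mouse, with 3-month mice in blue, 24-month mice in red, triangles for the higher rRNA level and, for both lists, black bars for the mean ± SD of 5 mice. The erythroid sum is mostly lower in old mice, 3 of the 5 young mice lie below all old mice in the leukocyte sum, and 3-month mouse 9 and 24-month mouse 32 sit with the other age in rRNA reads.

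miR-335 lies in an intron of Mest, a gene expressed from the paternal chromosome, and the data held a decrease of both arms. miR-335-5p (chr6:30741314-30741336) had 296, 291, 226, 328 and 293 CPM at 3 months and 195, 219.5, 211, 220.5 and 182 CPM at 24 months, a log2 change of -0.48 ± 0.08 (SE, adjusted p = 0.0072, edgeR). miR-335-3p (chr6:30741354-30741375) had 31, 34.6, 28.8, 34 and 35.5 CPM at 3 months and 23.3, 24.4, 24.2, 25.2 and 23.0 CPM at 24 months, a log2 change of -0.45 ± 0.07 (adjusted p = 0.00177). The ages did not overlap in either arm. Both arms stayed called whichever library was left out, and the erythroid covariate was the 1 alternative of 41 that took either from the calls, at log2 changes of -0.36 for miR-335-5p and -0.42 for miR-335-3p. The third tested miRNA of imprinted domains outside Dlk1-Dio3, miR-296-5p, had a log2 change of -0.61 that was not called.

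The Dlk1-Dio3 domain on chromosome 12 carries a large imprinted group of miRNA hairpins. Of its 24 tested miRNAs 7 were higher and 17 lower (16 under some scalings), 1 at an unadjusted p under 0.05 and 0 called, with a median log2 change of -0.18. Only 2 of them had a mean of at least 10 CPM. That with the smallest p, miR-127-3p, averaged 60.5 ± 6.75 CPM in young and 49.1 ± 5.99 CPM in old mice (SD, n = 5 each), with a log2 change of -0.30 ± 0.12 (SE, adjusted p = 0.186, edgeR). The Sfmbt2 group on chromosome 2, which is paternally expressed and known from placenta, had 9 of 18 tested sequences higher and a median log2 change of 0.01, with 2 of the higher ones, forms of miR-466f-3p, listed with the same counts.

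miR-378a, from an intron of Ppargc1b on chromosome 18, is known from mitochondrial and lipid metabolism. miR-378a-3p had 8857, 8781, 8241, 8928 and 8741 CPM at 3 months and 7536, 7136, 7697, 7987 and 7008 CPM at 24 months. Every old mouse was below every young mouse, and the log2 change was -0.22 ± 0.04 (SE, adjusted p = 0.0119, edgeR). It was lost without 24-month mouse 35 (adjusted p = 0.0816). miR-378a-5p averaged 226 ± 10.2 CPM in young and 200.1 ± 7.34 CPM in old mice (SD, n = 5 each) without overlap, with a log2 change of -0.18 ± 0.05 that was not called (adjusted p = 0.101). All 5 members of the miR-378 group that were tested were lower, with log2 changes of -0.24 to -0.18 and 4 at an unadjusted p under 0.05. In the same list of mitochondrial and lipid metabolism, miR-33-5p, from an intron of Srebf2 and known to repress cholesterol export, had 50 ± 5.69 and 63.6 ± 10.4 CPM (log2 change 0.35 ± 0.11, adjusted p = 0.112). miR-139-5p had 434 ± 26.0 and 483 ± 23.3 CPM without overlap (0.15 ± 0.05, adjusted p = 0.112). The list as a whole had 5 of 14 tested members higher and a median log2 change of -0.07.

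miR-26a-5p is the most abundant miRNA among those called. It had 53241, 51826, 51961, 52198 and 51110.5 CPM in the young mice and 56895, 57257, 59210, 58344 and 57824 CPM in the old mice, an increase of 11.2% without overlap. In log2 terms it rose by 0.15 ± 0.03 (SE, adjusted p = 0.0268, edgeR), and the mean rose by 5838 CPM. It comes from chr9:119031811-119031832, in an intron of Ctdspl, and chr10:126995543-126995564, in an exon of Ctdsp2, genes of phosphatases of RNA polymerase II. The adjusted p was 0.0607 without 3-month mouse 8, and 0.0511, 0.0983 and 0.0503 without 24-month mice 31, 33 and 35. It was 0.0905 with the rRNA level as a term, at a log2 change of 0.16 ± 0.04. miR-26b-5p, with the same seed and from an intron of the related gene Ctdsp1, averaged 13740.1 ± 728 and 13916 ± 334 CPM (SD, n = 5 each) and a log2 change of 0.02 ± 0.05. The 3p arms of the mir-26a hairpins were at under 20 CPM and were not called (log2 changes of -0.39 and -0.09).

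The miR-200 family keeps epithelial cells epithelial by repressing Zeb1 and Zeb2. miR-200b-3p (chr4:156055685-156055706, minus strand, intron of Ttll10) had 12312, 12814, 12379, 12106 and 12006 CPM at 3 months and 11318, 11249, 11325, 11599.6 and 10789.98 CPM at 24 months, a fall of 8.7% without overlap. Its log2 change was -0.13 ± 0.03 (SE, adjusted p = 0.0435, edgeR), and the call was lost in 12 of the 15 fits without 1 library (adjusted p up to 0.197), under 9 of 18 scalings and with the rRNA level as a term (-0.12 ± 0.04, adjusted p = 0.193). Of the 9 tested miRNAs of the family 7 were lower (8 under some scalings), 5 of them at an unadjusted p under 0.05, with a median log2 change of -0.13. The 3 mature miRNAs with the seed of miR-200b-3p all had differences of this size, since miR-200c-3p had a log2 change of -0.18 ± 0.06 and miR-429-3p one of -0.12 ± 0.04. Those with the other seed were nearer to 0, with -0.05 ± 0.04 for miR-200a-3p and 0.07 ± 0.09 for miR-141-3p. miR-200a and miR-429 lie within 10 kb of miR-200b on the same strand, and miR-200c and miR-141 lie together on chromosome 6. The difference between the seeds was not tested.

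Other tubular miRNAs varied in both directions. Of 17 tested members of the renal tubule list 5 were higher (4 to 7 under the scalings tried) and 12 lower, with a median log2 change of -0.03. miR-204-5p (chr19:22750610-22750631, intron of Trpm3), which is enriched in renal epithelium, had 146, 111, 141, 99.5 and 118 CPM at 3 months and 151, 174, 159, 147 and 177 CPM at 24 months. The ages did not overlap on this scale but did on library totals (up to 146 CPM in young and from 142 CPM in old mice). The log2 change of 0.39 ± 0.10 (SE) missed the threshold (adjusted p = 0.0583, edgeR), whereas the sum over the mir-204 hairpin was called (0.38 ± 0.10, adjusted p = 0.0334). The hairpin's call was lost with the rRNA term (adjusted p = 0.0537), with the erythroid covariate (0.230) and without 3-month mice 6 or 8, 12-month mice 18 or 20 or 24-month mice 33 or 35 (up to 0.105). The miR-30 family, the most abundant of the kidney, had 8 of 11 tested members lower (7 to 9 under the scalings tried) and a median log2 change of -0.07. None was called, and the values ranged from -0.18 ± 0.08 (SE) for miR-30b-3p to 0.10 ± 0.04 for miR-30a-5p. miR-192-5p and miR-194-5p had log2 changes of -0.01 and -0.03.

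The miR-29 family, whose 3p arms repress collagen genes, had 7 tested members, 6 of them higher and 5 at an unadjusted p under 0.05, and 0 were called. Of these 5, 3 were 5p arms, which carry other seeds. The median log2 change was 0.23. miR-29b-3p averaged 1939.9 CPM in young and 2319 CPM in old mice, with a log2 change of 0.26 ± 0.09 (SE), while miR-29a-3p, with the same seed and more than 10-fold more reads, had one of 0.05 ± 0.06. miR-21a-5p, which is raised in fibrotic kidneys, averaged 34701 ± 4739 and 35949.8 ± 2890.4 CPM (SD, n = 5 each) with a log2 change of 0.05 ± 0.12. The list of kidney ageing and fibrosis as a whole had 17 of 26 tested members higher (16 to 18 under the scalings tried) and a median log2 change of 0.07. In it 2 higher and 3 lower members were called, against 1.8% of all tested sequences, but the list was chosen with earlier results of these data known, so nothing is read from this share.

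**Figure D4:**
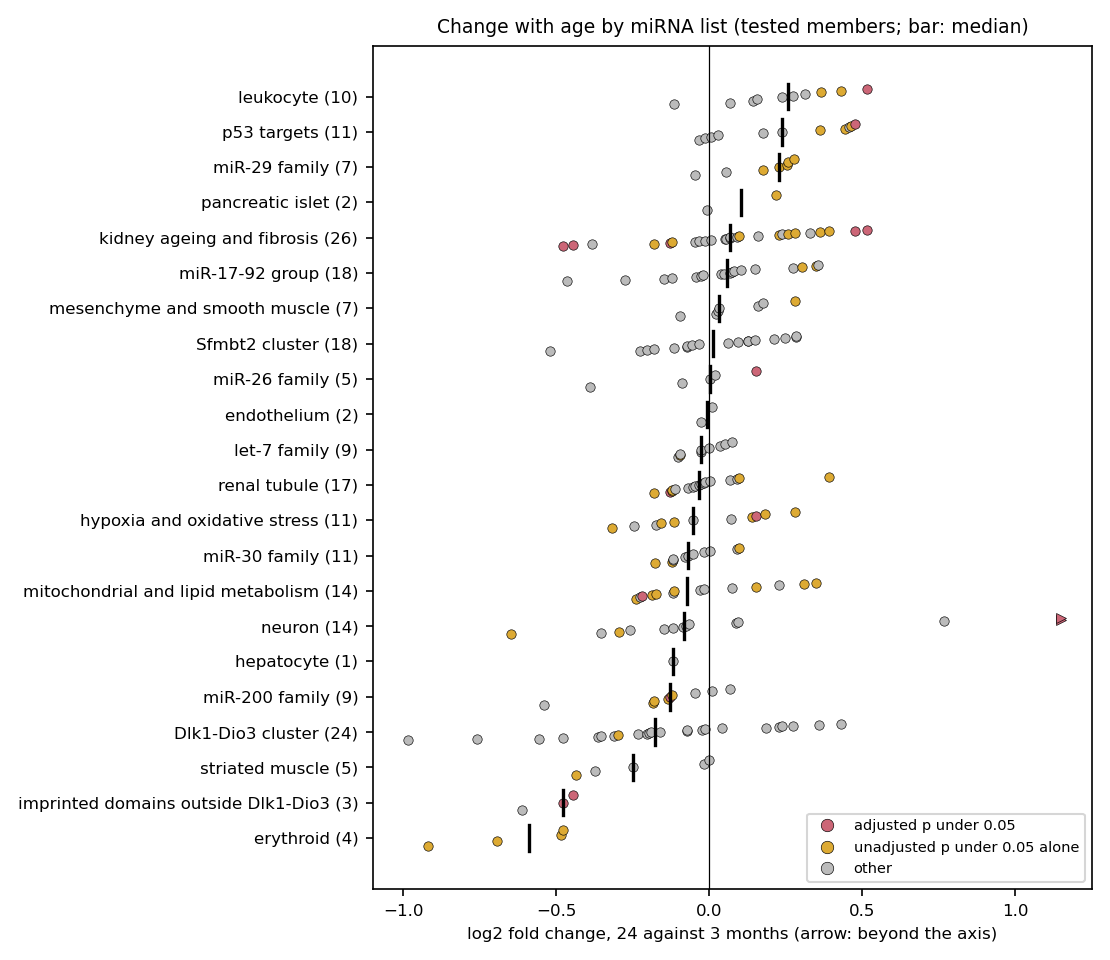
Each point is the log2 fold change of 1 tested miRNA at 24 against 3 months, by list (number of tested members in brackets), with red for called, yellow for an unadjusted p under 0.05 alone, grey for others and a black bar for the median of the list. The erythroid list lies lowest with a median of -0.59 and the leukocyte list highest with 0.26, and the arrows of the neuron list are the arms of miR-124.

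miR-151-3p, from an intron of Ptk2 (chr15:73254796-73254890), had 582, 715, 599.8, 654 and 656 CPM at 3 months and 543, 524, 529, 500.2 and 482 CPM at 24 months. No old mouse reached the young ones, and the decrease on the log2 scale was -0.31 ± 0.06 (SE, adjusted p = 0.0119, edgeR). Without 24-month mouse 35 the adjusted p was 0.0503. The other arm, miR-151-5p, had a log2 change of -0.04 ± 0.05.

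miR-615-3p (chr15:103014969-103014990) lies in an intron of Hoxc5, a gene of body axis patterning. It had 212, 178, 210.3, 182 and 190 CPM in the young mice and 157, 167, 151, 122 and 141 CPM in the old mice without overlap, a log2 change of -0.40 ± 0.09 (SE, adjusted p = 0.0268, edgeR). The call was lost in 5 fits without 1 library, those without 3-month mice 5 or 7 or 24-month mice 33, 34 or 35 (adjusted p up to 0.117). With the rRNA level as a term the adjusted p was 0.143, at a log2 change of -0.36 ± 0.10.

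miR-2137, from an intron of Zfp185 (chrX:72992079-72992144), rested on few reads, 29 to 77 per mouse at 3 months and 6 to 29 at 24 months. Its level was 2.33, 2.81, 3.95, 6.57 and 3.67 CPM in the young mice and 1.77, 1.87, 0.503, 0.749 and 0.781 CPM in the old mice. Its change was -1.65 ± 0.39 on the log2 scale (SE, adjusted p = 0.043, edgeR), and it was lost in 8 of the 15 fits without 1 library and with the rRNA level as a term (-1.35 ± 0.40, adjusted p = 0.193). The sequence listed for it differs from that of the reference at 1 base and at both ends.

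The 12-month means of the 12 called miRNAs lay between the means of both other ages in 8 and beyond the 24-month mean in 4, both arms of miR-124 and of miR-335. As all were chosen on the 3- and 24-month mice, this was not tested.

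Whether the arms of a hairpin changed together was asked for the 143 hairpins with both arms tested. Both arms were higher in 41 and lower in 55, so 67.1% shared a direction. The changes of both arms had a Pearson r of 0.40 over 142 hairpins without miR-124, a description across hairpins measured in the same libraries. A ratio of the 3p to the 5p arm differed between ages in 3 of 143 hairpins (2.1%, limma-trend, adjusted p under 0.05), and none of them was called with a pseudocount of 1 in place of 5, in the 10 libraries alone or with at least 10 counts in every library. All 3 stayed in 3 of the 15 fits with 1 library left out, those without 3-month mouse 7, 12-month mouse 21 or 24-month mouse 32. In miR-151 the log2 ratio was -1.84, -1.74, -1.91, -1.91 and -1.75 at 3 months and -2.04, -1.97, -2.15, -2.14 and -2.21 at 24 months, a difference of -0.27 ± 0.06 (SE, adjusted p = 0.0476). The ratio of miR-15b, whose 5p arm belongs to a group that restrains the cell cycle, was -3.72, -4.21, -3.49, -3.97 and -3.99 at 3 months and -3.46, -3.49, -3.44, -3.33 and -3.32 at 24 months, a difference of 0.47 ± 0.12 (adjusted p = 0.0476). Neither of its arms was called (log2 changes of -0.23 for miR-15b-5p and 0.24 for miR-15b-3p). The ratio of miR-124 rested on 0 reads of the 5p arm at 3 months and so on the pseudocount.

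**Figure D5:**
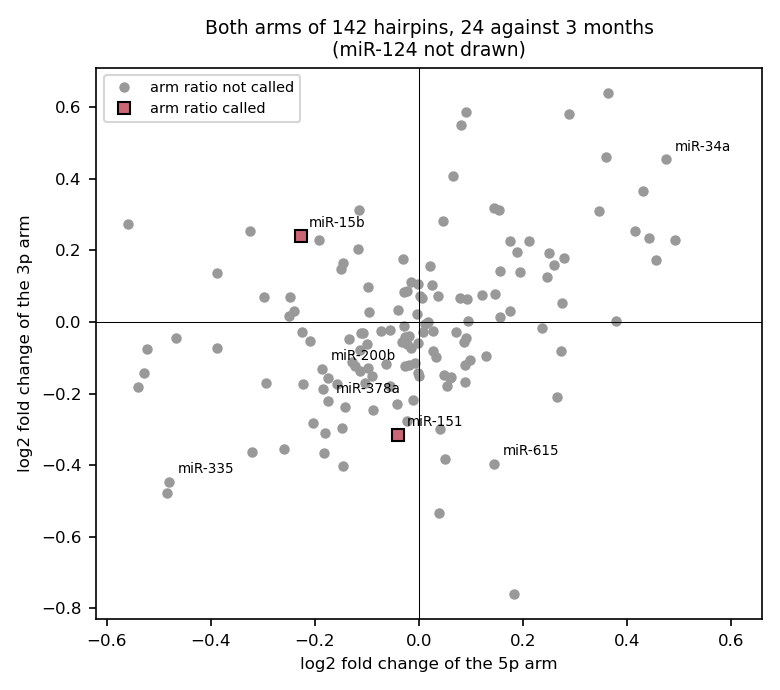
The log2 fold change of the 3p arm against that of the 5p arm, 1 point per hairpin, for 142 hairpins, with red squares where the arm ratio was called. miR-335 and miR-34a lie on the diagonal, low and high, while miR-151 is low in the 3p arm alone and miR-15b has arms of opposite sign.

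Reads were also summed over miRNAs with the same seed, the unit that selects targets. The sums were scaled anew, so a seed's log2 change is not on the scale of its members. Of 391 seeds 31 were called (7.93%), 23 higher and 8 lower, but this split depended on the scaling. With RLE factors 11 were called and 5 higher, with total counts 14 and 5, and with each of the 15 libraries as reference 10 to 31, of which 30.8% to 74.2% were higher. Under all 18 scalings 10 seeds were called, 4 higher and 6 lower, and 9 of these 10 had 1 called member that held 95% or more of the seed's reads. The remaining one was the seed of miR-34a-5p, shared by miR-34c-5p, miR-34b-5p and miR-449a-5p. It summed to 1362 ± 264 CPM in young and 1938 ± 182 CPM in old mice (SD, n = 5 each), with a log2 change of 0.51 ± 0.11 (SE, adjusted p = 0.0138, edgeR), with miR-34a-5p giving 85.7% of the reads. Over the 18 scalings the log2 change was 0.45 to 0.51. Without 24-month mouse 35 or 3-month mouse 8 its adjusted p was 0.0520 and 0.0522, and with a term for rRNA it had a log2 change of 0.37 (adjusted p = 0.0730). With the erythroid covariate only 1 of all 391 seeds stayed called. The seed of miR-26a-5p and miR-26b-5p had a log2 change of 0.17 ± 0.04 (0.12 to 0.17 over the scalings) and was called under 14, and that of miR-23a-3p and miR-23b-3p, miRNAs of endothelium and of hypoxic tissue, had one of 0.21 ± 0.05 (0.16 to 0.21) and was called under 9.

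Summed over hairpins, and over hairpins within 10 kb on a strand, 21 of 246 units were called (8.54%), 12 higher and 9 lower, and 17 were called under all 18 scalings, 10 higher and 7 lower. The share of calls that were higher was 57.1%, and it was 68.2% with RLE factors and 50% to 72.0% over the reference libraries. The 10 with the smallest p repeat the called miRNAs, among them the 3 hairpins of miR-124 and the 2 of miR-26a-5p, which cannot be told apart by their reads. Further down, mir-486a and mir-486b had the same values, and so did mir-135a-1 and mir-135a-2. Such hairpins enter the counts and shares above more than once, so nothing is read from the split by direction. With the rRNA level as a term 8 units were called, and 4 with the erythroid covariate. Besides the pair of mir-34c and mir-34b, 1 group of several hairpins was called, that from mir-322 to mir-542 on the X chromosome (chrX:53047997-53054349, minus strand), named after its values were seen. It includes miR-322 and miR-503, which restrain the cell cycle. The reads summed to 1978 ± 192 CPM in young and 1712 ± 78.7 CPM in old mice (SD, n = 5 each), with a log2 change of -0.21 ± 0.06 (SE, adjusted p = 0.0476, edgeR), called under 5 of 18 scalings. The call stayed in 2 of the 15 fits with 1 library left out, those without 3-month mouse 9 or 12-month mouse 17, and the adjusted p reached 0.176 in the others. It was lost too with the rRNA term (-0.17 ± 0.07, adjusted p = 0.205) and the erythroid covariate (0.340). Of its 13 tested miRNAs 12 were lower, 6 at an unadjusted p under 0.05 and 0 called. The one with the smallest p, miR-503-3p, had 52.1, 60.4, 47.8, 65.7 and 45.7 CPM in the young mice and 41.5, 47.0, 44.4, 42.5 and 35.5 CPM in the old mice (log2 change -0.36 ± 0.10, adjusted p = 0.0736), with overlap at 24-month mouse 32.

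The remaining miRNAs that averaged 10 CPM or more and just missed the threshold were miR-193a-3p and miR-339-5p. miR-193a-3p had 141, 107, 129, 123 and 133 CPM at 3 months and 189, 121, 185, 205 and 227 CPM at 24 months (log2 change 0.55 ± 0.14, adjusted p = 0.0583, edgeR). 24-month mouse 32 alone lay among the young mice, and the sum over the mir-193a hairpin was called (0.46 ± 0.12, adjusted p = 0.0332). That call was lost with the rRNA term (0.36 ± 0.14, adjusted p = 0.173), with the erythroid covariate (0.152) and without 3-month mice 6 or 8, 12-month mouse 18 or 24-month mice 33, 34 or 35 (up to 0.0897). miR-339-5p had 429.99, 463, 477, 465 and 464 CPM and 518, 526, 524, 503 and 559.9 CPM, which did not overlap on this scale but did on library totals (0.20 ± 0.05, adjusted p = 0.0893).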

How the data were processed

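Total RNA of mouse kidneys was sequenced as small RNA, and the authors passed the reads through ACGT101-miR (per the labels), which removes adapters, low-complexity reads, repeats and common RNA classes. The raw columns of the deposited table are expected counts, since the authors divided the reads of a sequence among its lines. The deposited normalized columns hold a signal, a rescaling of each library's raw values by its own factor (0.728 to 1.26), and served as an alternative. Here the 1318 lines were summed to 1153 sequences and rounded. No value column was left out.

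edgeR 4.0.16 in R 4.3.3 was run on all 15 libraries (TMM factors of 0.962 to 1.05, filterByExpr with a minimum count of 10 and minimum total of 15, quasi-likelihood F test, prior count 2) with 1 mean per age and the contrast of 24 minus 3 months. The filter kept 666 sequences, of which 15, in 7 sets and 0 of them called, are listed with the same counts as another. The same fit was made on sums over seeds and over hairpins. Arm ratios, log2 of (3p + 5)/(5p + 5), were tested with limma 3.58.1. Benjamini-Hochberg adjusted p under 0.05 was called. In simulated counts of the sequence comparison (649 sequences kept), 48.3% of changes of log2 0.5 and 78.1% of log2 1 were recovered. There 58 sequences changed by log2 0.5, 73 by log2 1 and 61 by log2 2, and 457 did not change. So many changes ease the adjusted threshold, so these shares check the fit and do not give its power in these data. The numbered libraries were read as 1 mouse each, so p-values measure the spread between these samples. Wilson intervals and limits of 0 counts cover counting error only.

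Positions in the table carry no build. They were taken as GRCm38, since 524 of 526 mouse hairpins overlap a GENCODE vM21 miRNA gene on the same strand, and that annotation gave hosts. Named here were all called sequences, the 10 most abundant miRNAs, the 2 list members with the smallest p in each direction, the other arms and neighbours of called miRNAs, the 6 next by p with at least 10 CPM, and the called seeds, hairpins and arm ratios (at most 10 each). miR-29a-3p and miR-296-5p were named after their values were seen. Members, lists and rules were chosen with earlier results of these data known. Alternatives were other scalings, filters, tools, covariates and each library left out. DESeq2 1.42.0 was one of them, and taking each library as the TMM reference was added after seeing the data.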

Additional observations from a re-analysis of the deposited data

Results flagged for a closer look

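In 10 of 166 groups of 5 mice, 1 per age for each named miRNA, the highest or lowest mouse lay apart from the others by Dixon's criterion, a number close to the 1 in 20 that chance gives. Among called miRNAs, miR-378a-3p had 8241 CPM in 3-month mouse 7, where the others had 8741 to 8928, and miR-34a-5p had 1364 CPM in 24-month mouse 32, where the others had 1655 to 1770. The liver miRNA miR-122-5p stood apart in 1 mouse of each age, with 28.1 CPM in 3-month mouse 5 (others 4.55 to 8.11) and 29.2 CPM in 24-month mouse 32 (others 2.74 to 9.30). The muscle miRNA miR-133a-3p had 46.9 CPM in 24-month mouse 33 (others 42.0 to 43.3). miR-142a-5p had 1149.6 CPM in 24-month mouse 34 (others 1421 to 1518), and miR-375-3p had 94.7 CPM in 24-month mouse 31 (others 107 to 108). miR-141-5p had 3.67 CPM in 3-month mouse 6 (others 5.21 to 5.77), and miR-26b-5p had 12511 CPM in 3-month mouse 9 (others 13798 to 14289). miR-136-3p had 6.41 CPM in 24-month mouse 32 (others 11.2 to 12.4).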

How the results depend on the processing

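No paired analysis was possible because the mouse numbers differ between ages. The number of called sequences (12) was 44 with DESeq2, of which 10 were among the 12, 7 in the 10 libraries alone and 1 with the summed erythroid list as a covariate, and it ranged from 4 to 34 when 1 library was left out. Called seeds (31) numbered 41 with DESeq2, 11 with RLE factors, 14 with total counts, 16 without a filter, 9 with at least 10 counts in every library, 12 in the 10 libraries alone, 9 with the rRNA level as a term, 1 with the erythroid covariate, 18 with seeds of bases 2 to 7, and 10, 12, 13, 14, 15, 17, 18, 19 or 20 with a library other than 24-month mouse 33 as reference of the TMM scaling. They ranged from 7 to 28 with 1 library left out. Called hairpins and clusters (21) numbered 37 with DESeq2, 10 in the 10 libraries alone, 13 with at least 10 counts in every library, 11 without a filter, 8 with the rRNA level as a term and 4 with the erythroid covariate, and 5 to 33 with 1 library left out. Called arm ratios (3) numbered 0 with a pseudocount of 1, 0 in the 10 libraries alone and 0 with at least 10 counts in every library, where the smallest adjusted p (limma-trend) was 0.0706, 0.0532 and 0.0721, and 1 to 5 with 1 library left out. With the erythroid covariate the log2 changes of miR-30c-5p (0.031), miR-10b-5p (0.021), miR-451a (0.086) and miR-143-5p (0.0051), none called, changed sign. miR-451a is itself a member of the list that forms the covariate. The causes were not tested. Over all 108 results and their alternatives, 3951 of 4269 values kept their direction and side of the threshold, 259 fell below it and 55 passed it. Uncalled changes under 1 SE were not counted as changes of sign. Reads of 5 or fewer per library limit miR-124-5p and other rare miRNAs.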

Other observations

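The let-7 family, which opposes proliferation and is among the most abundant in kidney, had 3 of 9 tested members higher (3 or 4 under the scalings tried) and a median log2 change of -0.03. The miR-17-92 group, which promotes proliferation, had 11 of 18 higher (11 or 12) and a median of 0.06, with miR-19b-3p (393 ± 64.3 to 500.1 ± 82.3 CPM, log2 change 0.35 ± 0.12 SE) and miR-20b-5p (0.30 ± 0.12) the 2 with an unadjusted p under 0.05 and 0 called. The mesenchyme and smooth muscle list had 6 of 7 higher with a median of 0.03, and miR-199a-5p and miR-199b-5p, a mature miRNA that both genes share, had 5848 ± 660 CPM in young and 7096 ± 459 CPM in old mice (0.28 ± 0.09, adjusted p = 0.112, edgeR). The list of hypoxia and oxidative stress had 5 of 11 above 0 and a median of -0.05. At an unadjusted p under 0.05, 4 of the 11 were higher and 3 lower, against 20.7% of all tested sequences in either direction, and 1 was called, miR-26a-5p.

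Of markers of tissues that a kidney sample can carry along, the striated muscle list had 5 tested members with a median log2 change of -0.25. In 3 the change was -0.25 or lower, in 2 it was under 1 SE, and 0 were called. There was 1 at an unadjusted p under 0.05, miR-1a-3p (-0.44 ± 0.16 SE, 104 to 243 CPM at 3 months and 113 to 139 CPM at 24 months). The liver miRNA miR-122-5p had a log2 change of -0.12 ± 0.65. Of the pancreatic islet miRNAs, miR-375-3p had a log2 change of 0.22 ± 0.09 (unadjusted p = 0.0321, adjusted p = 0.191) and miR-7a-5p one of -0.01 ± 0.07. The endothelial miR-126a-3p and miR-126a-5p had log2 changes of -0.03 and 0.01. Across 488 tested mouse miRNAs, which share the same libraries and are not independent replicates, the Spearman correlation of the log2 change was -0.18 with GC content, 0.09 with length and 0.03 with mean abundance.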
